A study of Mus musculus with 14 samples.

Results

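The members are the probes for 12 families of developmental transcription factors (Hox, Fox, Sox, Nkx, Pou, Tbx, Lhx, Pax, Dlx, Gata, Six-family and Msx), chosen by the opening letters of their gene symbol on the array. The choice gave 143 of 7601 features, which belong to 139 of 6542 named genes, and 1 Gata gene and 1 Pou-named gene were set aside by the rule. Among the 143 are 2 antisense noncoding RNAs (Hoxa11os and Dlx6os2) and 2 genes that share only their first letters with the T-box family, the thromboxane receptor Tbxa2r and the thromboxane synthase Tbxas1, so 139 probes stand for family members proper. Each of 14 spotted 2-colour arrays set RNA of 1 of 11 mouse cell lines (Cy5) against the Stratagene mouse reference (Cy3), which is a commercial RNA pool made from mouse cell lines. There were 2 arrays for each of the myeloma, fibroblast and mammary tumor lines and 1 for each of the liver, macrophage, testis, myoblast, embryo fibroblast, skin, T-cell lymphoma and kidney lines. The labels name no strain, treatment, age or clone, and they are silent on whether paired arrays used different cultures, so the p-values of single lines reflect array-to-array spread alone. The lineage comparisons further below use the line as replicate instead, and their p-values measure the spread between lines. The sample titles, followed here, speak of cell lines, while a short annotation of the same samples speaks of primary tissue. The reference of mammary tumor array 1 has the added letters MRR in its name, so it cannot be said from the labels to be the pool of the other arrays. The title's question is what each line adds to the pool. All values are read as log2 ratios of line over pool, in which 0 is the level of the pool; base 2 is assumed, and the direction was judged from the values.

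These families encode DNA-binding proteins that set cell identity and body pattern in the embryo. Hox, Nkx, Lhx, Dlx, Six-family, Msx, Pou and most Pax proteins carry a homeodomain, Fox proteins a forkhead domain, Sox proteins an HMG box, Tbx proteins a T-box and Gata proteins zinc fingers. Hox genes lie in clusters whose order follows the head-to-tail order of their expression, and cultured fibroblasts are known to keep Hox patterns of the body site they came from.

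In the order of their annotation, Hox genes had 30 probes, Fox 24, Sox 17, Nkx 11, Pou 10, Tbx 10, Lhx 9, Pax 9, Dlx 6, Gata 5, the Six-family 5 and Msx 3. Hoxb3, Lhx6, Nkx1-2 and Pou2f2 had 2 probes each, which were kept apart and are named A and B in the order of the probe number. Of the 143 probes, 138 had a value in all 11 lines and were tested, and 132 had a value on all 14 arrays. The untested probes were Sox8, Foxp2, Hoxa4, Hoxc9 and Hoxd9, each of which lacked a value in 1 line.

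Promoter sequences were looked up because the members that set lines apart could then be seen with their start regions. The RefSeq promoter table (GRCm38.p6) held 120 windows for 99 of the 139 genes. The 250 bases before the start had a median of 14.5 CpG and 61.4% GC in these windows, against 6 CpG and 52.4% GC over all 32851 windows. On either strand, the GC box GGGCGG occurred in 60.0% of members' windows and 32.7% of all, CCAAT in 44.2% and 33.8%, the TATA box TATAAA in 10.0% and 12.4%, and the POU octamer ATGCAAAT in 0.833% and 1.60%; the motifs share no letters where they are marked below. The windows of 4 members described below are given 5′ to 3′ on the gene's own strand, with matches to these motifs or their reverse complements in capitals. They lie at chr13:31806396-31806645 (plus strand) for Foxc1, chr6:52245811-52246060 (minus) for Hoxa11, chr7:25132461-25132710 (minus) for Pou2f2 and chr12:27342719-27342968 (minus) for Sox11.
Foxc1: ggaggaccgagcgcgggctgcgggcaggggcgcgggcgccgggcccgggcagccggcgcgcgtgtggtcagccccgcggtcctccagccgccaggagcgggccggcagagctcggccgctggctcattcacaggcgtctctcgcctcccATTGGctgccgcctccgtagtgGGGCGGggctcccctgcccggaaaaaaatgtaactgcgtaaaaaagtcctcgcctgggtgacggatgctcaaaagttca
Hoxa11: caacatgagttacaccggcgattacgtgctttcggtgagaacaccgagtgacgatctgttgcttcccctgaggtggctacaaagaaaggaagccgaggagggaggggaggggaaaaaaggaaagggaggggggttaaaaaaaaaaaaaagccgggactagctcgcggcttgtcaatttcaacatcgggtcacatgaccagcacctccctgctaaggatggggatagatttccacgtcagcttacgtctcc
Pou2f2: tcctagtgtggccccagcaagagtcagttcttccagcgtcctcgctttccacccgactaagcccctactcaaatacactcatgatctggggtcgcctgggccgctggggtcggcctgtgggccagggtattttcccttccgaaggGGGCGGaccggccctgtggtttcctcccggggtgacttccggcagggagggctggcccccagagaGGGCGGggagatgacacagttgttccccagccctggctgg
Sox11: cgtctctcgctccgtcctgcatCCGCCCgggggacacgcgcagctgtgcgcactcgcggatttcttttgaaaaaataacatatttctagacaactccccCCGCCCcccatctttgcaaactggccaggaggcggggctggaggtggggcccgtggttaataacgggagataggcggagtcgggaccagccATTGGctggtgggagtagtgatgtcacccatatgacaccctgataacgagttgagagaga
Foxc1 carried a reversed CCAAT box and a GC box and 29 CpG, Sox11 a reversed CCAAT box, 2 reversed GC boxes and 17 CpG, and Pou2f2 2 GC boxes and 12 CpG. Hoxa11 held none of these letters in this window and 13 CpG. A match describes the sequence and is not a bound site. Sox9, Hoxb3, Hoxb7 and Pax3 are named without a sequence. Pax6 and Hoxd11 had 2 windows each, which are not shown. These held 15 CpG each for Pax6, and 2 and 20 CpG for Hoxd11.

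Several facts of the arrays touch every value that follows. Between the arrays of a line, the members correlated with Pearson's r = 0.568 for mammary tumor (141 probes), 0.596 for myeloma (139) and 0.290 for fibroblast (142), and 42.3% of members differed by over 1 between the fibroblast arrays, against 30.8% of all features. On some arrays values ran alike along the probe number: member values correlated with the median of their 20 nearest nonmember probes at r = 0.558 on fibroblast array 1, 0.506 on the testis array and 0.460 on the kidney array, against 0.088 on mammary tumor array 1. Markers of the named cell type were highest in their own line for 7 of 7 myoblast, 5 of 5 myeloma, 4 of 4 T-cell and 5 of 6 macrophage genes, with medians of 3.22, 1.58, 1.90 and 1.86. They were highest in their own line for 0 of 7 mammary, 0 of 6 liver, 1 of 7 testis, 1 of 5 kidney, 1 of 5 fibroblast, 1 of 3 keratinocyte and 0 of 4 melanocyte genes (the last 2 lists are for skin). Medians of these lists in their own line were -0.11 for mammary, 0.09 for liver, 0.01 for testis, -0.17 for kidney, 0.04 for fibroblast, -0.05 for keratinocyte and -0.09 for melanocyte genes. The mammary genes ran from Krt8 at -3.01 to Cldn3 at 0.57 in the mammary tumor line, and Krt8 and Krt19 were highest in the liver line, at 2.46 and 2.72. The fibroblast genes had their highest mean in the testis line, at 1.08, and the embryo fibroblast line had all 5 below the pool, from -2.98 to -1.17. Organ, tumor and fibroblast names, and the grouping of lines as mesenchymal or organ-named, therefore follow the labels only.

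Few members set the lines apart. With limma, a test of any difference among the 11 lines called 7 of 138 members (5.07%) at an adjusted p under 0.05, against 8.00% of all tested features. The 7 were Sox9, Foxc1, Sox11, Pax3, Pax6, Hoxb7 and Hoxb3 probe A. In the comparisons of each line with the mean of the other 10, 14 of 1518 member tests were called (0.922%), 9 higher and 5 lower, against 1.89% of all tests. These 14 calls fell on 8 members, Hoxa11, Hoxd11 and Pou2f2 probe A besides all of the 7 but Sox11 and Pax3, which makes 10 members with any call. The fibroblast line had 5 member calls where the background was 1.23% of features, the embryo fibroblast line 3 (2.21%), the macrophage line 2 (4.07%), the mammary tumor line 2 (0.862%), the myeloma line 1 (6.70%) and the T-cell lymphoma line 1 (4.58%). No member was called in the other 5 lines at this limma threshold, and few features were: 0.795% in the myoblast, 0.350% in the testis, 0.0135% in the kidney, 0.0135% in the liver and 0% in the skin line. At an unadjusted p under 0.05 there were 5 to 21 members in each of these lines, 3.62% to 15.2% of them, against 8.11% to 17.4% of all features. The share of members was above that of all features in the liver (10.9% against 8.19%) and testis lines (13.8% against 11.9%). It was below in the kidney, myoblast and skin lines.

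**Figure D1:**
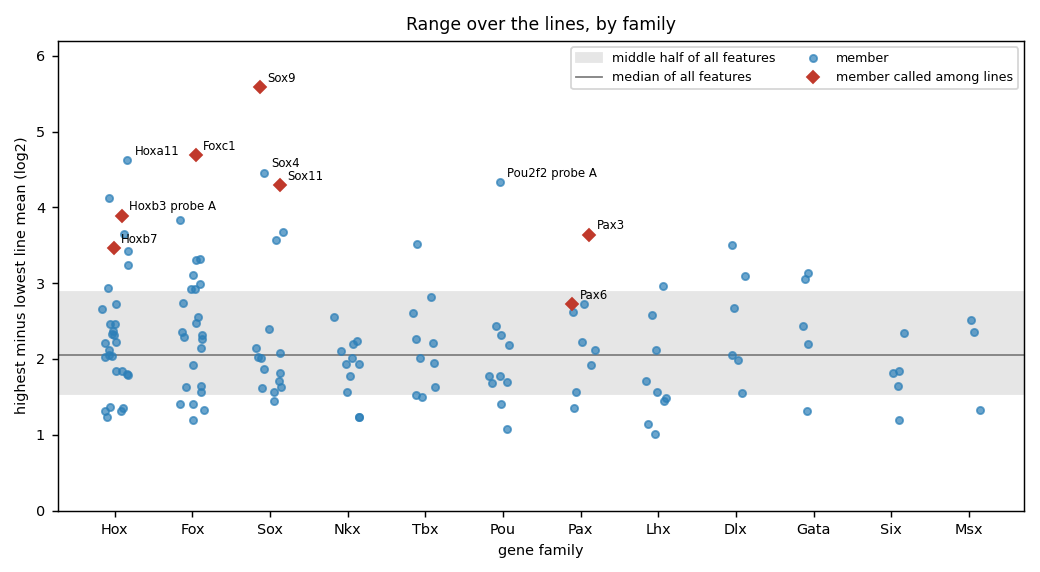
Range over the lines (highest minus lowest line mean, log2 scale, y axis) of each member probe, by family (x axis). Red diamonds are members called for a difference among lines, the grey line is the median of all 7601 features (2.05) and the grey band runs between their quartiles (1.54 and 2.89); Sox9 has the widest range at 5.59.

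In median range the members resembled the array as a whole, but smaller shares of them stayed within 1 of the pool or reached 2. The range from the lowest to the highest line mean had a median of 2.14 over the members and 2.05 over all features. By family the median range was 2.43 for Gata, 2.36 for Dlx and Msx, 2.34 for Fox, 2.27 for Hox, 2.23 for Pax, 2.11 for Tbx, 2.02 for Sox, 1.94 for Nkx, 1.81 for the Six-family, 1.78 for Pou and 1.56 for Lhx. Nkx, Tbx, Lhx, Dlx, Gata, Msx and the Six-family had no called probe. All line means stayed within 1 of the pool for 20 members (14%), against 24.5% of all features. These 20 were Foxd3, Foxo1, Gata3, Hoxa13, Hoxb4, Hoxb5, Lhx3, Lhx5, Lhx6 probe A, Nkx2-2, Nkx2-5, Nkx2-9, Pax4, Pax9, Pou3f2, Sox13, Sox15, Sox6, Tbx21 and Tbx3. A line mean reached 2 or more, 4 times the pool, for 5 members (3.50%, against 7.03% of all features) and -2 or less for 26 (18.2%, against 20.4%).

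Sox9, an HMG-box regulator of cartilage, gonad and epithelial progenitors, had the widest range of all members and 5 of the 14 line calls. It was 1.28 and 1.32 on the mammary tumor arrays, 0.38 and 0.72 on the fibroblast arrays and 0.58 in the embryo fibroblast line. It was -1.01 in the liver, -1.23 in the myoblast, -1.40 in the skin, -1.85 in the kidney and -2.11 in the testis line. In blood-cell lines it was -2.40 and -1.98 on the myeloma arrays, -3.00 in the macrophage and -4.29 in the T-cell lymphoma line. Thus 3 lines lay above the pool and 8 below, and the arrays of the 3 blood-cell lines included the lowest values. Against the other 10 lines Sox9 was 7.45-fold higher in the mammary tumor line (difference 2.90 ± 0.27 SE, n = 2 arrays, limma adjusted p = 0.0140). It was higher by 2.07 ± 0.27 in the fibroblast line (n = 2, limma adjusted p = 0.0242) and by 2.10 ± 0.36 in the embryo fibroblast line (n = 1, limma adjusted p = 0.0435).

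Sox9 was lower in the T-cell lymphoma line by 9.53-fold (difference -3.25 ± 0.36 SE, n = 1, limma adjusted p = 0.0157) and in the macrophage line by 3.58-fold (-1.84 ± 0.36, n = 1, limma adjusted p = 0.0445). The difference between its highest and lowest lines, 5.59 (moderated residual SD of the fit 0.35), is 48.2-fold (adjusted p of any difference among lines 0.0156, limma). Within runs of image numbers, the nearest thing to a batch that the labels give, the fibroblast line exceeded the mean of the other lines by 2.23 in 1 run and by 2.79 in another. Both mammary tumor arrays lay in runs with at most 1 other line. The mammary call was lost when array 1 or array 2 of that line was left out, where the limma adjusted p reached 0.208, and the T-cell call was lost only with arrays scaled to a common spread (-2.39, limma adjusted p = 0.139) among 14 other settings. The fibroblast, embryo fibroblast and macrophage calls were each lost in 6 of the 14, among them without either mammary tumor array and without myeloma array 2, where the highest limma adjusted p over these settings was 0.115, 0.169 and 0.336.

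Foxc1, a forkhead factor of mesenchyme, eye and vessel development, was highest in the fibroblast line. It was 1.54 and 1.79 on the fibroblast arrays, 0.88 in the embryo fibroblast line and 0.90 in the skin line. Every other line lay below the pool, at -0.46 in the myoblast, -1.19 in the kidney and -1.21 in the T-cell lymphoma line. It was -1.35 and -1.69 on the myeloma arrays, -1.68 in the liver, -1.88 in the testis, -2.08 and -1.78 on the mammary tumor arrays and -3.02 in the macrophage line. The fibroblast arrays did not overlap those of any other line. Foxc1 was 6.86-fold higher in the fibroblast line than in the mean of the other 10 (difference 2.78 ± 0.26 SE, n = 2, limma adjusted p = 0.0161) and 5.21-fold lower in the macrophage line (-2.38 ± 0.36, n = 1, limma adjusted p = 0.0197). The embryo fibroblast line, at 1.91 ± 0.36, missed the threshold (limma adjusted p = 0.0523), and so did the skin line, at 1.94 ± 0.36 (0.305). The fibroblast line exceeded the other lines by 2.05 in 1 run of image numbers and by 3.82 in the other, and its neighbouring probes had medians of 0.19 and -0.59 on its 2 arrays. The fibroblast call was lost without either fibroblast array and with scaled arrays (highest limma adjusted p 0.0778), and the macrophage call without either mammary tumor array and with scaled or quantile-normalized arrays (highest 0.225).

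Hox genes gave 5 calls, on 4 probes. Hoxa11, which patterns the forearm and the uterus, stood highest in the fibroblast line and lowest in the embryo fibroblast line. It was 1.03 and 1.94 on the fibroblast arrays, 0.35 in the testis, 0.29 in the T-cell lymphoma, -0.26 in the myoblast and -0.53 in the liver line. It was -0.27 and -1.09 on the myeloma arrays, -0.56 and -0.95 on the mammary tumor arrays, -1.11 in the skin, -1.65 in the kidney, -1.78 in the macrophage and -3.13 in the embryo fibroblast line. The lines named for fibroblasts thus held both ends of its range. The fibroblast line was 5.32-fold above the other 10 (2.41 ± 0.36 SE, n = 2, limma adjusted p = 0.0383). The embryo fibroblast line was 6.37-fold below (-2.67 ± 0.49, n = 1, limma adjusted p = 0.0492). That array also had a median of -0.509 over all features, the lowest of the 14, and with each array centred on its median the embryo fibroblast difference was -2.23 (limma adjusted p = 0.0757). Hoxa11os, the antisense RNA of this locus, was 2.34 and 0.61 on the fibroblast arrays and -1.50 in the kidney line, and all other arrays lay between -0.44 and 0.54. It had no call, and the sources used here do not say which strand each probe of the pair reads.

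Hoxb7 and Hoxb3 probe A, from the HoxB cluster, shared with Hoxa11 the fibroblast line as their highest. Hoxb7 was 1.04 and 0.62 on the fibroblast arrays, 0.64 in the testis and 0.07 in the kidney line. It was -0.14 in the skin, -0.21 in the T-cell lymphoma, -0.18 and -0.38 on the mammary tumor arrays and -0.93 and -0.78 on the myeloma arrays. It was -1.42 in the liver, -1.43 in the embryo fibroblast, -1.56 in the macrophage and -2.63 in the myoblast line. The testis value lay between the fibroblast arrays, so these lines overlapped. The fibroblast line was 3.06-fold above the others (1.61 ± 0.26 SE, n = 2, limma adjusted p = 0.0484), and the myoblast difference of -2.19 ± 0.35 missed the threshold (limma adjusted p = 0.0528).

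Hoxb3 probe A was 1.24 and 1.53 on the fibroblast arrays, 0.84 in the testis, 0.28 in the skin and -0.17 and 0.16 on the mammary tumor arrays. It was -0.61 in the kidney, -1.08 in the T-cell lymphoma, -1.22 in the macrophage and -0.63 and -1.57 on the myeloma arrays. It was -1.55 in the embryo fibroblast, -1.84 in the liver and -2.50 in the myoblast line. Both fibroblast arrays exceeded all others, by 4.81-fold against the mean of the other 10 lines (2.27 ± 0.32 SE, n = 2, limma adjusted p = 0.0328). Probe B of the same gene differed from it. It was -0.02 and 0.50 on the fibroblast arrays, 1.37 in the macrophage and 0.37 and 1.89 on the myeloma arrays. Probe B was 0.83 in the liver, 0.56 in the T-cell lymphoma, 0.28 in the myoblast, 0.22 and 0.38 on the mammary tumor and 0.23 on the skin array. It was -0.02 in the testis, -0.43 in the embryo fibroblast and -0.47 in the kidney line. The fibroblast difference of probe B was -0.14 ± 0.41 (limma adjusted p = 0.938), and with the probes of the gene averaged the call of any difference was lost (limma adjusted p = 0.349). The Hoxb3 pattern thus rests on 1 of its 2 probes.

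Hoxd11, a further posterior Hox gene, was called in the embryo fibroblast line alone. It was -2.04 there, and all other arrays lay between -0.68 in the myoblast and 1.21 in the T-cell lymphoma line. Besides these it was -0.29 in the skin, -0.14 and -0.13 on the fibroblast arrays, -0.06 in the kidney, 0.02 in the macrophage and 0.25 in the liver line. It was 0.40 and 0.24 on the mammary tumor, 0.44 and 0.43 on the myeloma arrays and 0.61 in the testis line. The difference was -2.21 ± 0.33 SE (4.61-fold, n = 1, limma adjusted p = 0.0301), and with arrays centred on their medians it was -1.77 (limma adjusted p = 0.0612). Within the 2 runs of image numbers that contain a fibroblast array, which allow no test, the fibroblast line exceeded the mean of the other lines by 2.53 and 2.60 for Hoxa11, by 1.56 and 1.42 for Hoxb7 and by 2.33 and 2.36 for Hoxb3 probe A. In the second of these runs the testis line, at 0.64, was above the fibroblast line, at 0.62, for Hoxb7. Their neighbouring probes had medians between -0.47 and 0.01 on those arrays. These Hox calls are the least firm of the 14, and each was lost without either mammary tumor array. Those in the fibroblast line were also lost without either fibroblast array. Of 14 other settings, the fibroblast calls of Hoxa11, Hoxb7 and Hoxb3 probe A were lost in 7, 8 and 7. The embryo fibroblast calls of Hoxa11 and Hoxd11 were lost in 10 and 7.

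**Figure D2:**
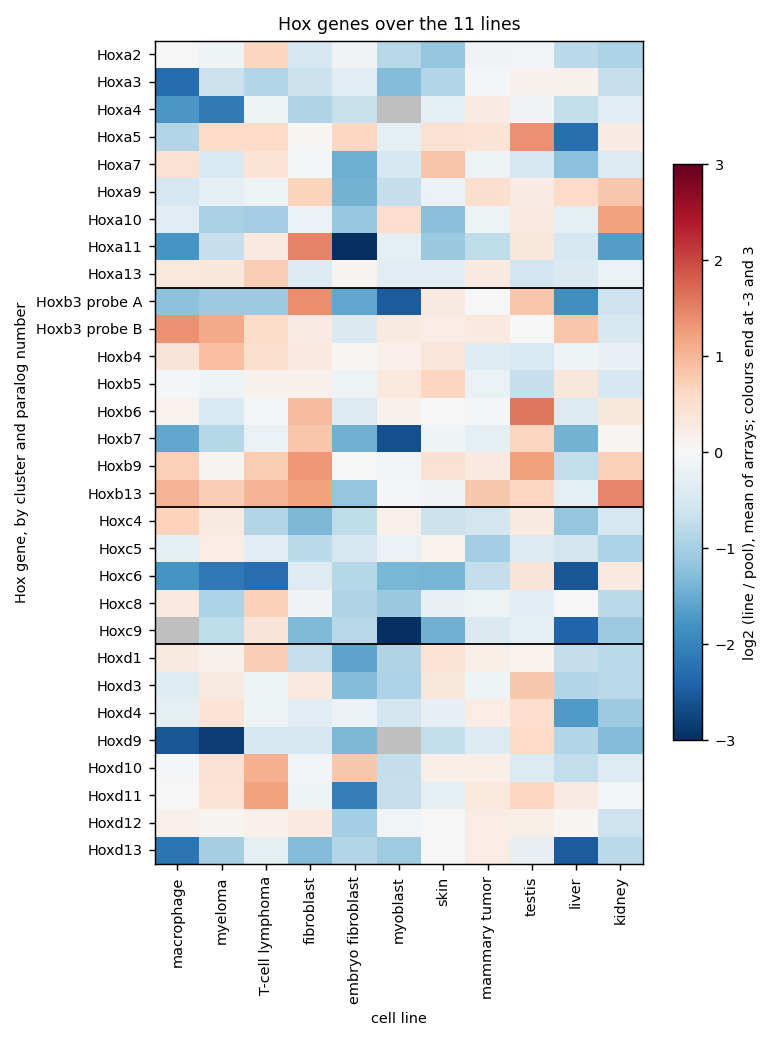
Line means of 30 Hox probes (y axis, by cluster A to D and paralog number) over the 11 lines (x axis); colour is the log2 ratio of line over pool, ending at -3 and 3, and grey marks no value. The HoxB probes are all above the pool in the fibroblast column, and the HoxC probes are all below it there.

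Taken by cluster, the HoxB probes lay above and the HoxC probes below the pool in the fibroblast line, a pattern described without a test. All 8 HoxB probes had a line mean above the pool there, with a median of 0.89 and a range of 0.12 to 1.39. In each of the testis, T-cell lymphoma, skin and macrophage lines 5 of 8 did, with medians of 0.63, 0.31, 0.26 and 0.25. The highest HoxB value of the testis line was 1.58. Of the HoxC probes, 0 of 5 were above the pool in the fibroblast line (median -0.78). HoxC values were low in other lines too: 0 of 5 were above the pool in the embryo fibroblast and mammary tumor lines too, and the HoxC median was below 0 in every line but the macrophage line (0.01). HoxA had a median of -0.17 over 9 probes, with Hoxa11 the highest, and HoxD -0.24 over 8. Not all of the HoxB values were alike on the 2 arrays. Hoxb9, a thoracic Hox gene, was 1.83 and 0.75, and Hoxb13, the most posterior HoxB gene, 1.88 and 0.51. On array 1 the probes neighbouring these 2 had medians of 1.09 and 1.15, and on array 2 of 0.11 and -0.17. Hoxb6, Sox3 and Foxm1, with neighbours of 1.15, 1.16 and 1.15 on array 1, were 1.61, 1.60 and 1.67 there and 0.29, 0.14 and 0.29 on array 2. After subtraction of the neighbours' median, a setting chosen after seeing the data, the fibroblast calls of Foxc1, Hoxa11, Hoxb7 and Hoxb3 probe A were kept, with differences of 2.96, 2.30, 1.73 and 2.37 (limma adjusted p = 0.0201, 0.0317, 0.0201 and 0.0344). In that setting the call of Hoxb3 probe A among lines (limma adjusted p = 0.0526) and the embryo fibroblast call of Hoxa11 (-1.95, 0.0751) were lost. The part of neighbouring spots in the values of Hoxb9, Hoxb13, Hoxb6, Sox3 and Foxm1 was not tested.

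**Figure D3:**
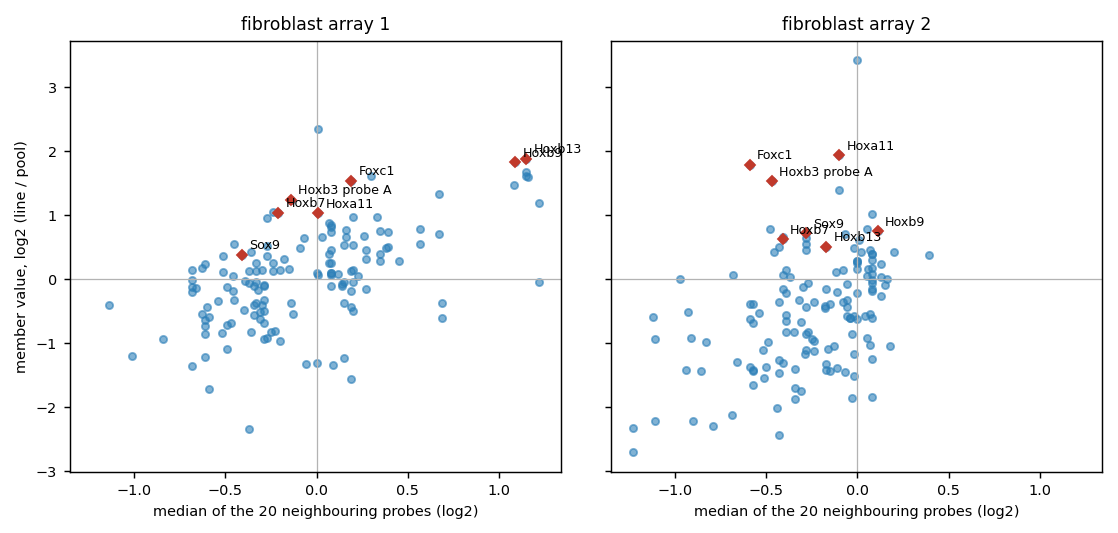
Value of each member (y axis, log2 ratio of line over pool) against the median of its 20 nearest nonmember probes by probe number (x axis, log2) on the 2 fibroblast arrays. Red diamonds are the 5 members called in the fibroblast line, whose neighbours lie between -0.59 and 0.19, and Hoxb9 and Hoxb13, whose neighbours lie at 1.09 and 1.15 on array 1.

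Over all 30 Hox probes, the line medians ran from -0.84 in the embryo fibroblast line, with 4 probes above the pool, to 0.21 in the testis line, with 18 above. The liver line had a median of -0.72, the myoblast line -0.54 and the kidney line -0.47. Paralogs 9 to 13, the posterior genes, had a median of -1.07 in the embryo fibroblast and 0.34 in the T-cell lymphoma line, over 12 probes. Paralogs 1 to 4 were at -0.55 and -0.13 there, over 10 probes. The medians of all members were -0.68 in the embryo fibroblast, 0.02 in the testis, -0.41 in the liver and -0.46 in the myoblast line. They were -0.66 in the kidney and 0.41 in the T-cell lymphoma line. Over all features the medians were -0.51, -0.15, -0.07, -0.08, -0.40 and -0.002, with the lines in the same order. No Hox line mean reached 2. The lowest were -3.73 for Hoxc9 in the myoblast line and -3.13 for Hoxa11 in the embryo fibroblast line, and the members reaching -2 included 11 Hox probes.

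**Figure D4:**
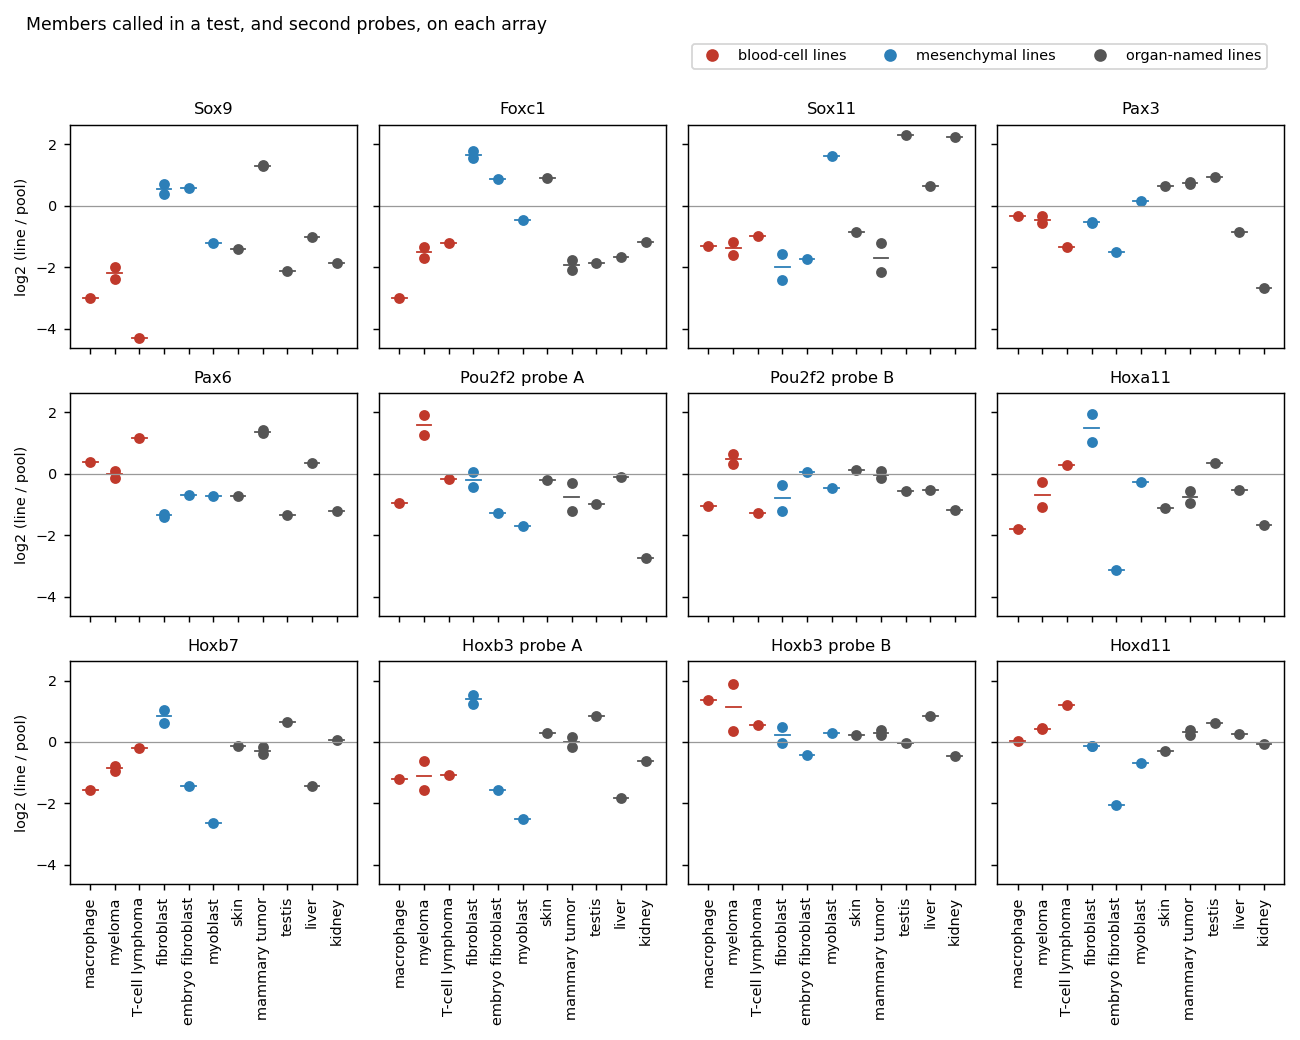
Log2 ratio of line over pool (y axis) on each array (points) and the mean of each line (bars) for the 10 called members and the second probes of Pou2f2 and Hoxb3, by line (x axis); colours mark blood-cell, mesenchymal and organ-named lines. Sox9 runs from -4.29 in the T-cell lymphoma to 1.30 in the mammary tumor line, and Pou2f2 probe A is above the other lines in myeloma.

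Among paired-box genes, Pax6, a regulator of eye, brain and pancreatic islet development, was called in the mammary tumor line. It was 1.32 and 1.43 on the mammary tumor arrays, 1.17 in the T-cell lymphoma, 0.39 in the macrophage and 0.36 in the liver line. It was 0.10 and -0.14 on the myeloma arrays, -0.68 in the embryo fibroblast, -0.72 in the skin and -0.73 in the myoblast line. It was -1.22 in the kidney, -1.34 in the testis and -1.31 and -1.39 on the fibroblast arrays. The mammary arrays were the highest of the 14 and the fibroblast and testis arrays the lowest. Pax6 was 3.46-fold higher in the mammary tumor line than in the other 10 (1.79 ± 0.25 SE, n = 2, limma adjusted p = 0.0302), a call lost with the run of image numbers as a random block and without either mammary tumor or either myeloma array (highest limma adjusted p 0.515). In the T-cell lymphoma line it was higher by 1.56 ± 0.33 without passing (limma adjusted p = 0.0516).

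Pax3, which marks neural crest and muscle progenitors, differed among the lines without a call in any single line. It was 0.95 in the testis, 0.72 and 0.77 on the mammary tumor arrays, 0.65 in the skin and 0.14 in the myoblast line. It was -0.56 and -0.34 on the myeloma arrays, -0.35 in the macrophage, -0.55 and -0.53 on the fibroblast arrays and -0.84 in the liver line. It was -1.33 in the T-cell lymphoma, -1.50 in the embryo fibroblast and -2.69 in the kidney line. The kidney array was alone at the low end, with a difference of -2.43 ± 0.33 SE (n = 1, limma adjusted p = 0.0796). The range was 3.64 (moderated residual SD 0.32, limma adjusted p = 0.0330). After quantile normalization it was 3.21 (limma adjusted p = 0.0581). The call was also lost with scaled arrays and without either mammary tumor array or either myeloma array.

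The only POU call was Pou2f2 probe A in the myeloma line; Pou2f2, also called Oct2, is the B-lineage octamer-binding factor. It was 1.28 and 1.91 on the myeloma arrays and 0.06 and -0.44 on the fibroblast arrays. It was -0.11 in the liver, -0.16 in the T-cell lymphoma, -0.20 in the skin and -0.31 and -1.20 on the mammary tumor arrays. It was -0.96 in the macrophage, -0.99 in the testis, -1.27 in the embryo fibroblast, -1.70 in the myoblast and -2.73 in the kidney line. The myeloma arrays did not overlap any others. The difference was 2.50 ± 0.35 SE or 5.65-fold (n = 2, limma adjusted p = 0.00924), and 2.22 within the run of image numbers that holds both myeloma arrays. The call was kept in 13 of 14 other settings and lost without myeloma array 2 (limma adjusted p = 0.129).

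Probe B of Pou2f2 was 0.33 and 0.63 on the myeloma arrays. Its other arrays lay between -1.29 in the T-cell lymphoma and 0.12 in the skin line, so its myeloma arrays were highest too. Its difference was 1.05 ± 0.31 SE (n = 2) and did not pass (limma adjusted p = 0.103). Of genes higher in the myeloma line that had a promoter window, 6 of 172 (3.49%) held the octamer ATGCAAAT, against 101 of 5072 tested genes (1.99%), which is given as a description. Pax5, which marks B cells before the plasma cell stage, was 0.42 and -0.66 on the myeloma arrays.

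Sox11, which is active in neural and other embryonic progenitors, was above the pool in 4 lines of different names. It was 2.29 in the testis, 2.23 in the kidney, 1.61 in the myoblast and 0.63 in the liver line. All other arrays were below the pool, at -0.84 in the skin, -0.97 in the T-cell lymphoma, -1.19 and -1.59 on the myeloma and -1.32 on the macrophage array. It was -1.21 and -2.17 on the mammary tumor arrays, -1.72 in the embryo fibroblast line and -1.56 and -2.43 on the fibroblast arrays. The lines were split here by the sign of their values, so the lack of overlap between the 4 and the other 7 follows from the split. The range was 4.29 (19.5-fold, moderated residual SD 0.48, limma adjusted p = 0.0315). Against the other 10 lines the differences were 2.83 ± 0.50 SE for testis, 2.77 ± 0.50 for kidney and 2.09 ± 0.50 for myoblast. None passed (n = 1 each, limma adjusted p = 0.102, 0.0952 and 0.118). The call among lines was lost without either array of the mammary tumor or of the myeloma pair (limma adjusted p = 0.0623 to 0.0886).

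The other members that reached 2 in a line were Sox8, Gata2, Foxb2 and Foxp2. Gata2 and Foxb2 were not called, and Sox8 and Foxp2, which each lacked a value in a line, were not tested. Gata2, a factor of blood progenitors and several other tissues, was 2.02 in the testis, 1.50 in the myoblast and 0.97 and -0.15 on the fibroblast arrays. Its other arrays lay between -1.03 in the liver line and 0.20 on mammary tumor array 1, and the testis difference was 2.00 ± 0.48 SE (limma adjusted p = 0.200). Foxb2, a forkhead factor of the brain, was 2.17 in the T-cell lymphoma line and between -1.66 and 0.67 elsewhere, a difference of 2.59 ± 0.65 (limma adjusted p = 0.0767). Sox8, a relative of Sox9, was 2.02 and 4.08 on the myeloma arrays, 0.46 and 3.42 on the fibroblast arrays and 3.13 in the T-cell lymphoma line. Sox8 was 3.12 in the liver, 2.33 in the skin, 1.20 in the macrophage, 0.73 in the myoblast, 0.55 in the embryo fibroblast, -0.45 in the kidney and -0.55 in the testis line, and both mammary tumor arrays had no value. Foxp2 was 2.24 and -2.48 on the myeloma arrays, 2.17 in the T-cell lymphoma, 1.70 in the macrophage, 1.05 and 0.38 on the fibroblast arrays and 1.35 and 0.14 on the mammary tumor arrays. It had no value in the embryo fibroblast line and lay between 0.27 and 0.77 in the other 5. Arrays of the same line thus lay far apart for Sox8 and Foxp2.

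No member was called between the 3 lines of blood cells (T-cell lymphoma, macrophage and myeloma) and the other 8 with the line as replicate, where limma called 3.22% of all features. At an unadjusted p under 0.05 there were 20 members (14.5%), 16 higher and 4 lower in blood-cell lines, against 19.8% of all features. Sox9 came nearest, with means of -3.16 and -0.65 and a difference of -2.51 ± 0.71 SE (n = 3 and 8 lines, limma adjusted p = 0.0701). Sox4, a relative of Sox11 known in lymphocyte and neural progenitors, differed by -2.10 ± 0.67 (limma adjusted p = 0.102). Sox4 was -3.10 in the T-cell lymphoma line, -2.67 and -0.87 on the myeloma arrays and -1.43 in the macrophage line. Its other arrays ran from -2.34 and -1.85 on the fibroblast arrays and -1.46 in the skin line to 0.94 in the liver and 1.35 in the myoblast line, so the groups overlapped. Tbx4, a hindlimb and lung T-box factor, was higher by 1.02 ± 0.31 (limma adjusted p = 0.0890) and Six4 lower by 1.02 ± 0.32 (difference -1.02, limma adjusted p = 0.0943). With the same contrast taken in the fit over all 14 arrays, whose error is the spread between arrays and not between lines, 9 of 138 members passed where 12.8% of all features did, Sox9 at a limma adjusted p of 0.00180.

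Between the 3 lines called mesenchymal by their names (fibroblast, embryo fibroblast, myoblast) and the 5 lines named for an organ, limma called no member and 0% of all features. At an unadjusted p under 0.05 there were 9 members (6.52%), 1 higher and 8 lower in the mesenchymal lines, against 6.87% of all features. Foxc1 was the 1 that was higher, by 1.85 ± 0.67 SE (n = 3 and 5 lines, limma adjusted p = 0.697). In the fit over all 14 arrays it was the 1 member that passed (limma adjusted p = 0.0440), with 0.445% of all features. Foxf1, a forkhead factor of visceral mesenchyme, was lower in the mesenchymal lines, with means of -1.68 and -0.23 (limma adjusted p = 0.697).

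By line, the T-cell lymphoma array stood out for how many members had their highest value there. It was the highest line for 53 of 143 members (37.1%), against 21.0% of all features, and the members' median there was 0.413 where that of all features was -0.002. Only Sox9, at the low end, was called on that array, and 22 members were higher and 4 lower at an unadjusted p under 0.05, together 18.8%, against 23.4% of all features. The testis line was highest for 22 members (15.4%, against 7.78% of all) and the mammary tumor line for 16 (11.2%, against 6.78%). The embryo fibroblast line was lowest for 37 members (25.9%, against 24.1% of all), the myoblast line for 25 (17.5%, against 10.5%) and the kidney line for 24 (16.8%, against 16.7%). Median member values were -0.68, -0.46 and -0.66 in these 3 lines, against -0.51, -0.08 and -0.40 for all features. The liver line was lowest for 14 members (9.79%, against 3.84% of all). Spot intensities were not analysed here, so how many of these probes were near background is unknown.

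**Figure D5:**
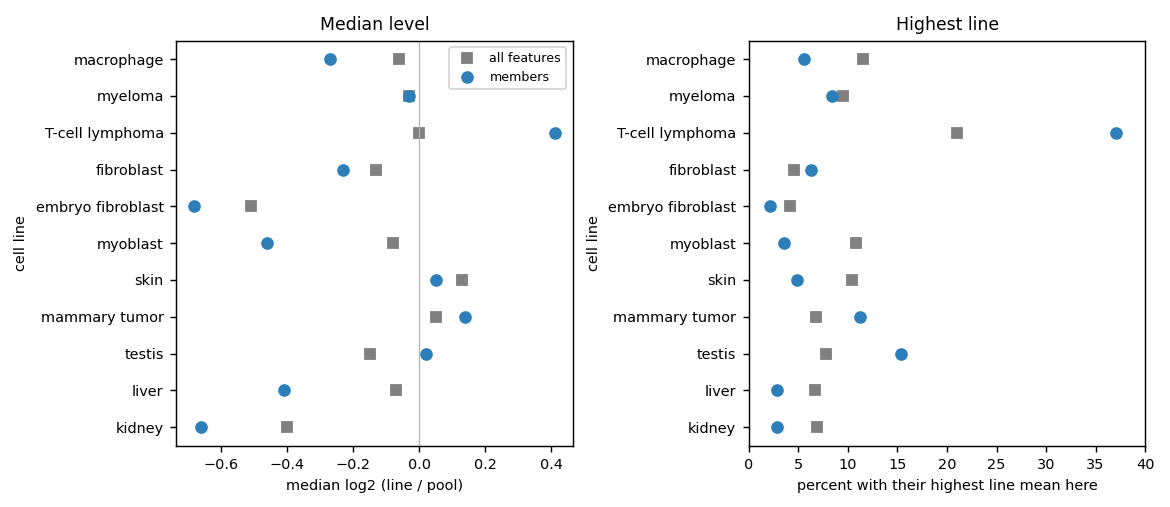
Left, median log2 ratio of line over pool (x axis) of the 143 members (blue circles) and of all 7601 features (grey squares) in each line (y axis). Right, percent of members and of all features that have their highest line mean in that line; the T-cell lymphoma line holds 37.1% of members and 21.0% of all features.

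Some members whose textbook role matches the name of a line, picked after their values were seen, are given as values. None of the pairs below was called. Pou2f2 in the myeloma line and Foxc1, a factor of mesenchyme, in the fibroblast line were called and are described above. In the kidney line Pax8, a nephron and thyroid factor, was 0.99 and Pax2, a nephric duct factor, -1.73. In the liver line the hepatocyte factors Foxa1, Foxa2 and Foxa3 were -0.31, 1.07 and 0.25. Foxa2 was highest there, but mammary tumor array 1 was at 0.93. In the testis line Gata4, a Sertoli and Leydig cell factor, was 0.59. The mammary tumor arrays at 1.11 and 0.96 and the embryo fibroblast line at 0.98, among others, were above it. Sox9, whose roles include the gonad, was -2.11 in the testis line. In the myoblast line the satellite cell factor Pax7 was -1.39, its lowest value, and Pax3, which marks muscle progenitors, was 0.14. Gata3 and Tbx21, factors of helper T cells, stayed within 1 of the pool in all lines. Gata3 was 0.43 in the T-cell lymphoma line and highest in the macrophage line, at 0.80. Tbx21 was highest in the testis line, at 0.87. In the skin line Sox10, a melanocyte factor, was 0.07, while the T-cell lymphoma line was its highest at 1.05. Pou5f1, the pluripotency factor Oct4, ranged only from -1.03 in the embryo fibroblast to 0.66 in the T-cell lymphoma line by line mean.

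Genes that work with these families were taken from textbook lists, and their counts stand beside 8.00% of all features called for any difference and 6.70% called in the myeloma line. Of 7 TALE homeodomain cofactors of Hox proteins, limma called 1, Meis3, with a range of 4.66 (moderated residual SD 0.45, limma adjusted p = 0.0330). Meis3 was lower in the myeloma line (difference -3.21 ± 0.35 SE, limma adjusted p = 0.00428). Of 20 Polycomb and Trithorax probes, which code for chromatin regulators of Hox clusters, none was called for any difference and 3 were called in the myeloma line, Jarid2 higher by 1.32 ± 0.27 and Phc2 and Scmh1 lower, at -1.62 and -1.94. Of 23 probes for retinoic acid signalling, an upstream signal of Hox genes, Crabp1, a cellular retinoic acid binding protein, was called. Crabp1 was higher by 5.05 ± 0.35 in the fibroblast line and by 4.46 ± 0.47 in the embryo fibroblast line (limma adjusted p = 0.00461 and 0.0155). Of 6 probes for the receptor gene Rara and 5 for Rarg, 1 each was lower in blood-cell lines, by differences of -2.93 ± 0.72 and -2.75 ± 0.64 (n = 3 and 8 lines, limma adjusted p = 0.0426 and 0.0346). The other probes did not pass and ran from -0.68 to 0.88 for Rara and from -0.12 to 0.90 for Rarg, so probes of a gene disagreed. Aldh1a2, which makes retinoic acid, was higher in the myeloma line by 2.53 ± 0.45 (limma adjusted p = 0.0228).

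Of 7 GATA cofactors, Spi1, the myeloid and B-cell factor PU.1, was higher by 3.03 ± 0.34 SE in the macrophage line and by 1.96 ± 0.25 in the myeloma line (limma adjusted p = 0.0104 and 0.00744). Zfpm1 was higher and Zfpm2 lower in the T-cell lymphoma line, at 1.69 and -2.75. Of 41 probes for other homeobox families, 5 were called among the lines (Prrx1, Prrx2, Irx2, Irx5 and Hlx). Prrx1, a mesenchymal factor of the limb, was higher by 1.75 ± 0.29 in the fibroblast line (limma adjusted p = 0.05 after rounding, still under the threshold). Its values were 0.67 and 1.30 on the fibroblast arrays and 1.04 in the myoblast line, so these lines overlapped. In the T-cell lymphoma line Prrx1 was lower (difference -2.25). Prrx2 had a range of 6.83 (moderated residual SD 0.45, limma adjusted p = 0.0177), wider than that of Sox9. It was lower in the macrophage line (difference -4.25 ± 0.47 SE). Irx5 was higher in the mammary tumor line by 2.33 ± 0.30 (limma adjusted p = 0.0302), as was Prrx2 by 2.76 ± 0.35 (0.0302). By line mean Prrx2 was highest in the myoblast line, at 1.48 (difference 3.26), against 1.03 in the mammary tumor line.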

How the data were processed

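The deposited table holds 1 log2 ratio per spot and array, which the authors made from 2-colour arrays. The sources used here give neither background correction, normalization and filters nor log base, centring and direction. Unlogged and averaged over the lines, which should give 1 in an equal pool, the ratio had a median of 1.00 if taken as log2 line over pool. It was 1.87 as log10 and 1.07 as natural log, and for the tenth of features that varied most it was 0.926, and 3.14 with the opposite sign. The sign and the base other than 10 rest on this, base 2 is assumed, and centring is unknown. Each array's median is in the range from -0.509 to 0.126. Dyes were never swapped, so a probe's dye effect is in every ratio.

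Of 7680 probes, 80 Gapdh spots were averaged. Gene names came from the platform annotation: 6835 probes had 1 symbol, 4 several and 841 none, and 6809 were matched to current RefSeq symbols. Features measured in each of the 11 lines (7423) were fitted with limma 3.58.1 in R 4.3.3 (lmFit, eBayes) in 1 model with a coefficient a line, and Benjamini-Hochberg adjusted within a comparison. Residual degrees of freedom were 3, all from the lines with paired arrays, plus 3.75 by moderation (median residual SD 0.43), and lines with 1 array are taken to vary as those do. Line differences are against the mean of the other 10 with equal weights, and lineages were compared on line means. The code was tested on simulated data. The number of arrays limits the precision.

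The members, the gene and marker lists and the tests were chosen with earlier results of these data known. The rule named members called in a test, those at 2 or more in a line and genes whose probes differ in their calls, and listed genes only where called; the textbook pairings of members and lines, and members given for their neighbouring probes or near misses, were chosen after their values were seen.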

Additional observations from a re-analysis of the deposited data

Results flagged for a closer look

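Foxc1 in the skin line, at 0.90, lay far from the other 4 organ-named lines, with a gap to the nearest of 0.739 of their whole range. In 20 such groups checked this was the 1 that passed Dixon's limit, and chance gives about 1 in 20. The skin line had 1 array, in a run of image numbers of its own, so line and run cannot be told apart.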

How the results depend on the processing

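Of the 7 members that differed among the lines, 0 were called with arrays scaled to a common spread, and the count ranged from 0 to 8 when 1 array of a pair was left out. Without mammary tumor array 1 or 2 or myeloma array 2 it was 0, and without myeloma array 1 it was 2; without myeloma array 2 no feature at all was called for a difference (594 with all arrays). The 14 line calls became 6 with scaled arrays and 25 after subtracting the median of neighbouring probes, a setting chosen after seeing the data. They ranged from 3 to 27 with an array left out, being 3 without either mammary tumor array, 9 and 5 without myeloma array 1 and 2, and 27 and 25 without fibroblast array 1 and 2. Leaving an array out removes 1 of 3 residual degrees of freedom. Between blood-cell and other lines, 0 members became 2 (Nkx2-6 and Six4) after subtracting neighbours and 9 in the fit over all arrays. Between mesenchymal and organ-named lines, 0 became 1 (Foxc1, 1.85) in the fit over all arrays. Leaving out single lines gave 0 in both. Most of these member counts stand without the share of all features called in the same setting. They show how calls moved with the setting and are not a result about the members. None of the 14 line calls changed sign in any setting. The range used for differences among lines cannot change sign, and named members without a call were not compared for sign. The fit with runs of image numbers as a random block had a correlation of 0.47. Hoxa11 in the embryo fibroblast line kept its call in 4 of 14 settings, Hoxb7 in the fibroblast line in 6, Hoxa11 and Hoxb3 probe A in the fibroblast line and Hoxd11 in 7 each, Sox9 in the fibroblast, embryo fibroblast and macrophage lines in 8 each, Pax6 in 9, Foxc1 in the macrophage line in 10 and in the fibroblast line in 11, Sox9 in the mammary tumor line in 12 and in the T-cell lymphoma line in 13, and Pou2f2 probe A in 13. No paired analysis was possible because the labels number only the second array of 3 lines.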
